A study of Mus musculus with 16 samples.

Results

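Translation initiation factors (eIFs) and elongation factors (eEFs) are encoded by genes whose symbols start with Eif or Eef, and every row of the raw count files with such a symbol was taken. There were 65 of them among the 24421 genes of the files, 55 starting with Eif and 10 with Eef. Initiation factors bring the small ribosomal subunit and the initiator tRNA to the capped end of an mRNA and set it on the start codon, and elongation factors then deliver each further tRNA and move the ribosome along. Cells adjust this machinery at known points. Kinases that phosphorylate eIF2α lower initiation under stress, 4E-binding proteins hold back the cap-binding protein when mTORC1 is inactive, and a kinase that inhibits eEF2 slows elongation. In macrophages these controls help to set how much of an inflammatory or growth-related mRNA is turned into protein.

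The counts came from total RNA of cells sorted from subcutaneous MC38-Ova tumours, a mouse colorectal line that carries ovalbumin, grown in female Kaede transgenic C57BL/6 mice without treatment. Kaede is a protein that turns from green to red under violet light, and the tumours were illuminated once, so Kaede-red cells were in the tumour at that moment and Kaede-green cells had entered since. Cells were collected 24h or 72h later with a gate of live, CD45+, TER119-, Kaede+, CD11b+ and NK1.1-, which gave 4 groups of 4 libraries each: MG24 (green, 24h), MR24 (red, 24h), MG72 (green, 72h) and MR72 (red, 72h). All 16 libraries carried the same batch label. Points in the study's plots stood for tumours of independent mice, and whether a green and a red library with the same number came from the same tumour was not stated. The labels call the cells macrophages, although the gate would also hold other CD11b+ cells, and the p-values below measure the spread between these samples.

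Libraries held 3216860 to 15423100 counts, of which the ribosomal RNA precursor Rn45s took 79.0 to 93.4% in green and 55.8 to 84.9% in red libraries. Outside Rn45s, green libraries held 468092 to 912689 counts and red libraries 758192 to 5472480, so the 65 genes rested on 2846 to 5629 counts in a green library and on 8251 to 67300 in a red library. Levels are given as CPM, a library's counts scaled to a common total, after a composition correction (TMM) that sets the bulk of genes level between libraries. On that scale all 65 genes together took 1192 to 1597 CPM in green and 1403 to 1561 CPM in red libraries, which overlapped. As a share of the counts outside Rn45s, they took 0.560 to 0.727% in green and 0.933 to 1.25% in red libraries, which did not overlap. When libraries were scaled to those totals without the composition correction, the median of all genes moved to a log2 difference between red and green of 0.91 at 24h, 0.69 at 72h and 0.81 over both times, so every difference below is relative to the bulk of genes in these libraries. All 9 macrophage and monocyte markers were detected, at 749 to 2437 CPM in sum. Over both times C1qa, Adgre1, Mertk, Cd68 and Csf1r were higher in red cells (log2 2.72, 1.53, 1.42, 1.14 and 0.95). Lyz2 was lower (log2 -1.25), and Ly6c2, Ccr2 and Fcgr1 lay between -0.12 and -0.004. Within a time, Ly6c2 was at log2 -0.69 at 24h and 0.45 at 72h, neither past the threshold given below. Lyz2 was at -1.81 at 24h, past that threshold, and at -0.68 at 72h, not past it. Fibroblast markers summed to 40.3 to 52.6 CPM in green and 11.1 to 35.8 CPM in red libraries, endothelial markers to 9.75 to 19.0 CPM in green and 17.9 to 36.8 CPM in red, and neutrophil markers to 15.8 to 18.2 CPM in MR72 against 5.72 to 11.4 CPM in the other groups. The endothelial markers went both ways over both times: Kdr and Pecam1 were higher in red cells (log2 1.06 and 1.02) and Cdh5 lower (log2 -1.42), while Tie1 was too low to test. Of the neutrophil markers, Csf3r alone was high enough to test, with log2 differences of 0.21 at 24h and 1.12 at 72h. S100a8, S100a9, Cxcr2 and Retnlg were too low. Markers of dividing cells summed to 20.0 to 27.7 CPM in MR72 and to 24.5 to 56.5 CPM elsewhere. T and NK cell, B cell and epithelial markers stayed at or below 4.08 CPM in sum, dendritic cell markers at or below 5.08 and erythroid markers at or below 9.66, and the neutrophil gene Retnlg was at 0 in MG24, MR24 and MG72. The part of these marker differences in the results below was not tested. In RNA of a mixed sort, fewer cells of a type and less RNA per cell cannot be told apart.

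Compared per kilobase of exon, which allows levels of different genes to be set side by side, the elongation factor Eef1a1, the carrier of aminoacyl-tRNA to the ribosome, stood far above the others at a mean of 184 CPM per kb over the 16 libraries (range 96.9 to 237). Eef1b2, part of the complex that recharges eEF1A with GTP, followed at a mean of 28.1 CPM per kb, and then Eif3h at 21.3, Eef2 at 20.3, Eif5a at 20.0, Eif4a1 at 18.3, Eif1 at 16.6 and Eef1g at 12.5 CPM per kb. The place of Eef1b2 rested on the green groups (40.2 in MG24 and 37.7 in MG72): it was at 20.8 CPM per kb in MR24, below Eif4a1 at 22.0, and at 13.6 in MR72, below Eef2 at 29.4, Eif4a1 at 18.9, Eif5a at 16.6, Eif3h at 15.0 and Eif1 at 14.8. Between Eif3h and Eif1 the neighbours in this order had ranges over libraries that overlapped. Eif4a1, a helicase that unwinds mRNA at the cap, headed the eIF4 proteins, Eif3h the eIF3 scaffold, Eif5a the late factors and Eif1 the scanning factors. The leading genes of the regulatory groups were lower. Over the 16 libraries Eif2s1 had the highest mean of eIF2 at 4.33, although Eif2s3x at 4.30 was above its 3.51 in MR72, the interferon-inducible kinase gene Eif2ak2 headed the eIF2α kinases at 3.50, Eif2b2 and Eif2b5 led the exchange factor eIF2B at 2.20 and 2.09, with Eif2b5 the higher of the pair in the green groups, and Eif4ebp1 headed the 4E-binding proteins at 4.20 CPM per kb. Eef2kmt, which methylates eEF2, was at 0.361 and Eef2k, the eEF2 kinase, at 0.106 CPM per kb, the latter resting on 1 to 45 counts a library.

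**Figure D1:**
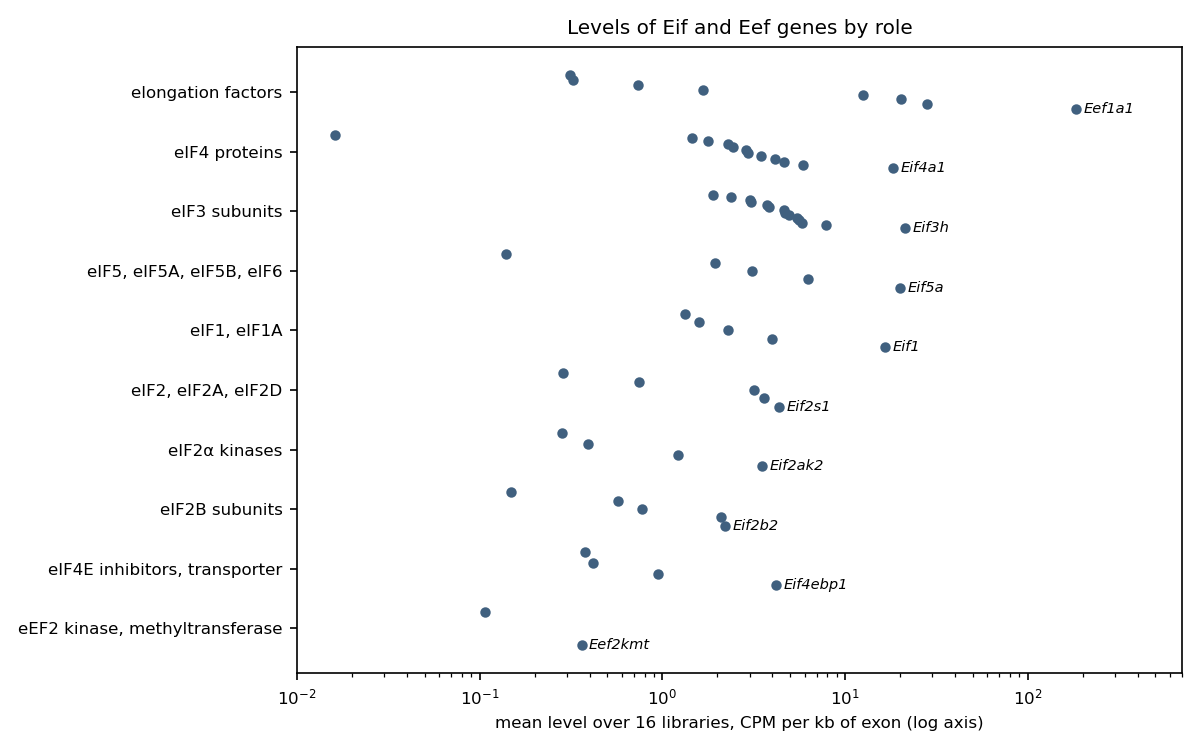
Mean level of each detected gene over the 16 libraries in CPM per kb of exon, on a log axis, with 1 row for each role group and the highest member of each group named. Eef1a1 at 184 CPM per kb lies to the right of every other gene, and the eIF2B and eIF2α kinase rows lie below 4 CPM per kb.

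A library held counts for between 58 and 63 of the 65 genes. Eif2s3y, the Y-linked copy of the eIF2γ gene, had 0 counts in all 16 libraries, while its X-linked partner Eif2s3x was at 7.36 to 21.2 CPM. Eif3j1 and Eif3j2 had the same count in every library, as near-identical copies can when shared reads are counted at both, and their values are described below as 1 measurement, while counts of genes and summed levels include both. After a filter on low counts 60 of the 65 genes were tested, among 9642 genes in all. Those left out were Eif2s3y, Eef2k, the germline cap-binding gene Eif4e1b, Eif4ebp3 and Eef1a2, the muscle and neuron form of eEF1A, which had 31 counts in library 3 of MG72 and at most 7 in any other.

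Whether Kaede-red cells differed from Kaede-green cells was tested with edgeR's quasi-likelihood test, and a gene was called where its p adjusted over all 9642 genes by the Benjamini-Hochberg method was under 0.05. Over both times 11 of the 60 genes were called, 4 higher and 7 lower in red cells, which was 18.3% against 20.2% of all genes tested. At 24h 4 were called, 2 in each direction (6.67% against 7.51% of all genes), and at 72h 13 were called, 6 higher and 7 lower (21.7% against 16.8%). Eif3j1 and Eif3j2 account for 2 of those 13, so 12 distinct measurements moved. These shares lay near those of all genes. The median log2 difference of the 60 genes was 0.17 at 24h, 0.04 at 72h and 0.06 over both times, beside 0.05, 0.03 and 0.06 for all genes. With the Rn45s share of each library as a covariate, edgeR called 1 of the 60 at 24h (Eif2s1), 0 at 72h and 0 over both times. The share of all genes called under that covariate is not given here, so these counts cannot set the 60 genes apart from the rest. Of the 34 calls made over all comparisons 3 were kept under that covariate, those of Eif2s1 at 24h, of Eef2 in red cells with time and of Eif4a2 for the change of the colour difference. The Rn45s share itself went with colour (79.0 to 93.4% in green and 55.8 to 84.9% in red libraries). A call lost with this covariate, here and below, therefore cannot tell a difference of colour from one of that share. With totals outside Rn45s as the scale 46, 27 and 50 were called, nearly all higher in red cells, and of the genes lower at 72h, Eif1ax, Eif3h, Eif3k and the pair Eif3j1 and Eif3j2 were no longer called (log2 -0.30 to -0.06). On that scale the median of all genes moved towards red cells as well, as given above, so these counts do not set the 60 genes apart. Without a filter on low counts 7 were higher and 4 lower over both times.

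Green cells at 72h had entered at any moment since illumination, so 72h against 24h in green cells does not compare set times in the tumour. Tumours collected at 72h were also older than those at 24h. In either colour, tumour age and time since illumination cannot be told apart. In green cells 0 of the 60 genes were called (72h against 24h), where 0% of all genes were called by edgeR. At an unadjusted p under 0.05 there were 7 of the 60 genes and 835 of all genes, and DESeq2 called 14 genes in all and none of the 60. In red cells 5 of the 60 were called, 3 higher and 2 lower at 72h (8.33% against 8.67% of all genes). The test of whether the colour difference itself changed between 24h and 72h called 1 of the 60, Eif4a2, against 0.767% of all genes. Altogether 18 of the 60 genes were called in at least 1 comparison (30% against 27.5% of all genes), and 2 of them, Eef1b2 and Eif3d, differed between colours at both 24h and 72h (3.33% against 4.1%), so these shares too lay near those of all genes. The comparisons share libraries, so their values are given side by side without a measure of their likeness.

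**Figure D2:**
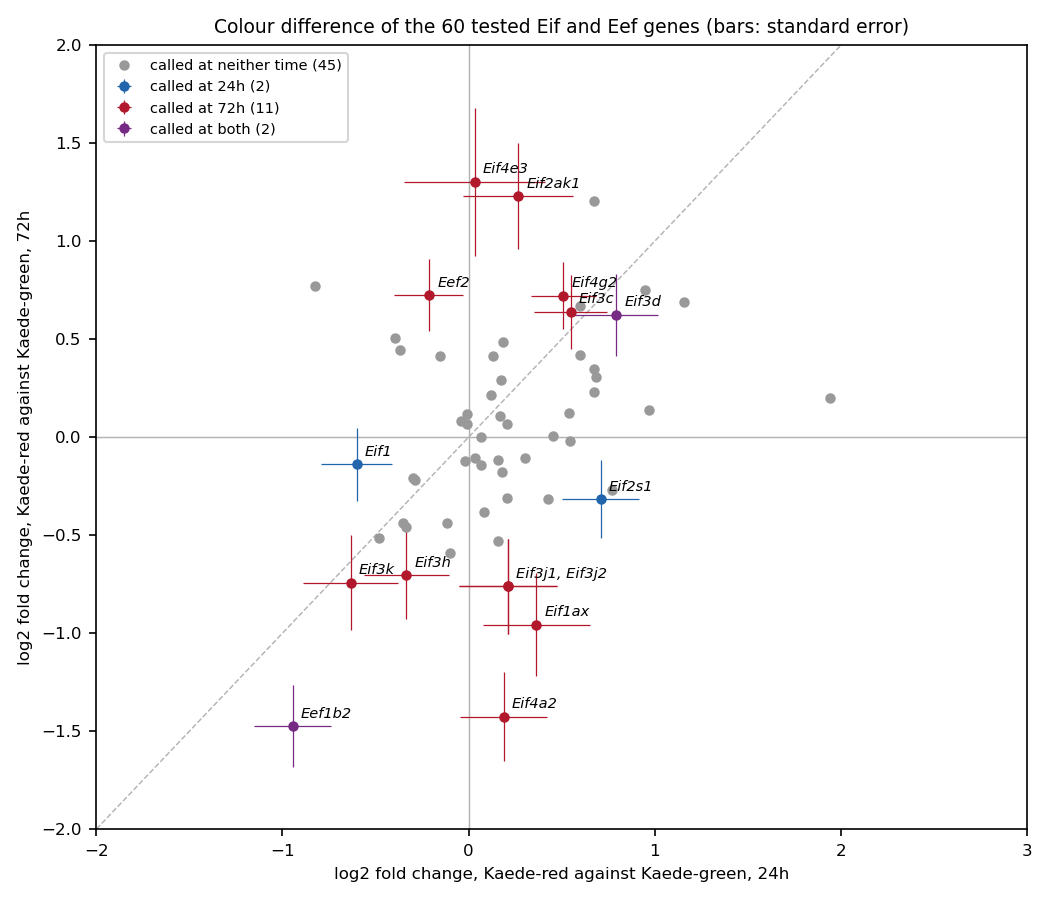
Log2 fold change of Kaede-red against Kaede-green cells at 24h (horizontal) and 72h (vertical) for the 60 tested genes on the TMM scale, with standard errors for the called genes and a dashed line of equality. Eef1b2 lies low at both times (-0.94 and -1.47), while Eif4a2 lies at 0.19 at 24h and -1.43 at 72h.

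Among the 7 elongation factor genes tested, Eef1b2 was lower in red cells at both times and Eef2 was higher in red cells at 72h. The others were not called in any comparison. Eef1b2 (chr1:63176825-63180486, plus strand, GRCm38) encodes the nucleotide exchange subunit eEF1Bα. It measured 123, 92.0, 101 and 91.4 CPM in MG24 and 52.3, 47.5, 53.9 and 57.3 CPM in MR24. At 72h it measured 99.1, 139, 72.9 and 71.1 CPM in MG72 and 28.6, 36.8, 42.6 and 29.9 CPM in MR72. Every red library lay below every green library, whichever the time. The level was 1.92-fold lower in red cells at 24h (log2 -0.94 ± 0.21 SE, adjusted p = 0.00319) and 2.78-fold lower at 72h (log2 -1.47 ± 0.21, adjusted p = 6.36e-06). Over both times it was 2.31-fold lower (adjusted p = 2.49e-07), the smallest p of the 60 genes. The calls at 24h, at 72h and over both times held without any 1 library, and with totals outside Rn45s as the scale the difference at 24h was -0.05 on the log2 scale (adjusted p = 0.824). The difference of Eef1b2 between 72h and 24h in red cells (log2 -0.62 ± 0.20) had an adjusted p of 0.0526 by edgeR and 0.00862 by DESeq2, and the change of the colour difference with time (log2 -0.53 ± 0.29) one of 0.388. Its exons overlap those of Gm27390 on the same strand, whose reads counting by strand would not separate. They also overlap those of Ndufs1 on the opposite strand. Whether reads were counted by strand was not stated, so reads of Eef1b2 and Ndufs1 cannot be told apart. With the Rn45s share of each library as a covariate, Eef1b2 over both times was at log2 -0.84 with an adjusted p of 0.0755, and the adjusted p was 0.260 at 24h and 0.0892 at 72h.

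The other partners of the exchange complex did not follow Eef1b2 past the threshold. Eef1g, which encodes its γ subunit, was at 31.0 ± 4.08 CPM in MG24, 32.6 ± 1.30 in MR24, 33.1 ± 4.87 in MG72 and 33.2 ± 3.05 in MR72 (SD, n = 4), with a log2 difference of 0.04 between colours over both times (adjusted p = 0.884). Eef1d, for the δ subunit, had a log2 difference of -0.25 (adjusted p = 0.295). Eef1a1, the client of this complex, was at 447 ± 164, 485 ± 84.8, 417 ± 91.4 and 484 ± 48.3 CPM in MG24, MR24, MG72 and MR72 (SD, n = 4), and its groups overlapped. Its log2 difference between colours was 0.17 ± 0.17 SE (adjusted p = 0.543). On the same strand, exons of Eef1a1 overlap Gm26377 and those of Eef1d overlap Naprt.

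Eef2 (chr10:81176631-81182498, plus strand) encodes the factor that moves the ribosome by a codon. It measured 49.0, 71.9, 59.5 and 62.4 CPM in MG24 and 52.6, 53.8, 53.2 and 50.4 CPM in MR24. In MG72 it was at 68.5, 42.9, 62.0 and 63.0 CPM, and in MR72 at 109, 94.5, 87.1 and 99.7 CPM. The MR72 libraries stood above all 12 others, which overlapped one another. Eef2 was 1.65-fold higher in red than in green cells at 72h (log2 0.73 ± 0.18 SE, adjusted p = 0.00499) and 1.86-fold higher in red cells at 72h than at 24h (log2 0.90 ± 0.18, adjusted p = 0.00279), and both calls held without any 1 library. At 24h the colour difference was -0.21 ± 0.19 on the log2 scale (adjusted p = 0.566). The test of the change in colour difference gave log2 0.94 ± 0.26 with an adjusted p of 0.0683 by edgeR and 0.000597 by DESeq2. With the Rn45s share as a covariate the rise in red cells was still called, whereas the colour difference at 72h was not (log2 0.57, adjusted p = 0.520).

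Eef1a1, Eef2, Eef1b2 and Eif3f belong to a classical class of mRNAs that begin with a C followed by a run of pyrimidines (the 5′ TOP motif), which lets mTORC1 control their translation. Because Eef1b2 was lower in red than in green cells while Eef2 was higher at 72h, and Eef2 and Eif3f rose in red cells with time, the bases around their annotated starts are shown, together with those of Eif4a2 and Eif2ak1, whose differences at 72h were also large. Each stretch runs from 20 bases before to 30 bases from the RefSeq start (build GRCm38.p6) and is written along the strand of the gene. Capitals mark each C followed by pyrimidines in a run of at least 6 bases.
Eef1a1, chr9:78481695-78481744, minus strand: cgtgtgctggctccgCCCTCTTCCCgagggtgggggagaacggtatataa
Eef2, chr10:81176611-81176660, plus strand: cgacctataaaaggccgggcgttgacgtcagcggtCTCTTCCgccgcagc
Eif3f, chr7:108934395-108934444, plus strand: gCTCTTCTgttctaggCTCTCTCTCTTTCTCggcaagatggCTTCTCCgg
Eef1b2, chr1:63176811-63176860, plus strand: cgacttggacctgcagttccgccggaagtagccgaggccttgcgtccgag
Eif4a2, chr16:23107448-23107497, plus strand: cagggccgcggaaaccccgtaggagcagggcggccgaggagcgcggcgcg
Eif2ak1, chr5:143817772-143817821, plus strand: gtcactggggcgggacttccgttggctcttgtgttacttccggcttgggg

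Eef1a1, Eef2 and Eif3f held such runs, the longest of 10, 7 and 15 bases, and the longest run that started with C near the annotated starts of Eef1b2, Eif4a2 and Eif2ak1 was 4, 4 and 5 bases. The runs of Eef1a1, Eef2 and Eif3f began at positions -5, 16 and -4 from the start, so none began at the annotated first base. Where transcription starts in these cells was not measured, so a run or its absence here does not show whether an mRNA begins with the motif. RefSeq starts were found for 51 of the 65 genes, and 19 of these (37.25%) held a run, beside 37.84% of all 27025 genes in the same windows. Of the 13 called genes with a start, 3 held one (Eef2, Eif3f and Eif3k). The letters CACGTG, an E-box read the same on both strands, stood in the 300-base windows from 250 before to 50 after a start of 12 of the 51 genes (23.53%), beside 8.09% of all genes in the table. Eef2, Eif3f, Eif3k and Eif5a were the called genes with this motif. Classical TOP mRNAs among translation factors, a list of 10 that also holds Pabpc1, did not move together: at 72h Eef2 and Pabpc1 were higher and Eef1b2 and Eif3h lower in red cells, and 6 were not called (median log2 0.04, beside 0.03 for all genes). In red cells from 24h to 72h edgeR called Eef2, Pabpc1 and Eif3f, all higher at 72h (median log2 of the 10 genes 0.01), and DESeq2 also called Eef1b2, which was lower at 72h.

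Of the 11 tested genes for cap-binding eIF4 proteins and helicases, Eif4g2 was higher and Eif4a2 lower in red cells over both times, and Eif4e3 was higher in red cells at 72h. Eif4a2 showed the sharpest change with time. It encodes eIF4A2, a helicase closely related to eIF4A1. It measured 16.2, 11.0, 16.3 and 18.8 CPM in MG24, 13.3, 14.0, 20.8 and 23.0 CPM in MR24, 21.9, 24.1, 21.6 and 14.3 CPM in MG72, and 7.11, 7.77, 8.60 and 7.10 CPM in MR72. All MR72 libraries lay below all 12 others. Eif4a2 was 2.69-fold lower in red than in green cells at 72h (log2 -1.43 ± 0.23 SE, adjusted p = 3.75e-05) and 2.34-fold lower in red cells at 72h than at 24h (log2 -1.23 ± 0.22, adjusted p = 0.00116), and both calls held without any 1 library. With the Rn45s covariate the adjusted p of the latter was 0.0572.

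At 24h the colour difference of Eif4a2 was 0.19 ± 0.24 on the log2 scale (adjusted p = 0.708). The change of the colour difference from 24h to 72h was -1.62 ± 0.33 (adjusted p = 0.0227). This call was lost when library 2 of MG24, 3 or 4 of MR24, or 1 or 2 of MR72 was left out (adjusted p 0.0504 to 0.0759). It held with the Rn45s share as a covariate, under which the 72h colour difference was not called (log2 -0.67, adjusted p = 0.520). Over both times Eif4a2 was lower in red cells by 0.62 on the log2 scale (log2 -0.62 ± 0.16, adjusted p = 0.00636), which reversed to 0.14 when libraries were scaled to totals outside Rn45s and to 0.01 with the Rn45s covariate. Exons of Eif4a2 (chr16:23107444-23114136, plus strand) overlap Gm49346 on the same strand, Rfc4 on the opposite strand and 5 small nucleolar RNA genes. The abundant Snora81 among them, counted in its own row, was at 75.9 to 96.9 CPM in MG24, 26.1 to 56.7 in MR24, 71.8 to 476 in MG72 and 8.80 to 33.1 in MR72. Snora81 thus lay lower in red than in green libraries without overlap at both times, and Eif4a2 did so at 72h. Whether reads of Snora81 or of the other overlapping genes add to the row of Eif4a2 was not tested.

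Its paralogue Eif4a1, the main helicase of the cap complex, was at 65.7, 87.9, 55.4 and 53.9 CPM in MG24 and at 97.4, 93.7, 105 and 86.2 CPM in MR24. In MG72 it was at 80.5, 86.5, 62.5 and 71.1 CPM and in MR72 at 88.4, 87.7, 77.1 and 73.7 CPM. Only 1 of the 4 green libraries at 24h reached into the red range. The log2 difference was 0.54 ± 0.19 at 24h (adjusted p = 0.0792) and 0.33 ± 0.13 over both times (adjusted p = 0.0737) by edgeR. DESeq2 called both, at 24h (log2 0.53, adjusted p = 0.00664) and over both times (log2 0.31, adjusted p = 0.0168). Exons of Eif4a1 overlap the small nucleolar RNA genes Gm22988 and Gm24029.

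Eif4g2 (also called DAP5), a relative of the scaffold eIF4G1 that serves initiation without eIF4E, was higher in red cells. It measured 42.9, 46.6, 50.5 and 41.6 CPM in MG24, 71.9, 67.9, 59.9 and 59.5 CPM in MR24, 45.5, 42.6, 52.5 and 51.9 CPM in MG72, and 80.0, 82.4, 80.6 and 75.2 CPM in MR72. All 8 red libraries lay above all 8 green libraries. The difference was 1.53-fold over both times (log2 0.62 ± 0.12 SE, adjusted p = 0.000339) and 1.65-fold at 72h (log2 0.72 ± 0.17, adjusted p = 0.00290), and both calls held without any 1 library but were lost with the Rn45s covariate (adjusted p = 0.346 and 0.475). At 24h the difference was 0.51 ± 0.17 on the log2 scale (adjusted p = 0.0710 by edgeR and 0.00119 by DESeq2). The scaffold Eif4g1 itself was at 21.4 ± 6.69, 24.2 ± 5.16, 27.0 ± 1.83 and 29.1 ± 3.07 CPM in MG24, MR24, MG72 and MR72 (SD, n = 4), with a log2 difference between colours of 0.14 (adjusted p = 0.555). Exons of Eif4g2 overlap the small nucleolar RNA gene Gm23262, and those of Eif4g1 overlap Snord66.

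Eif4e3 encodes an atypical cap-binding protein and was low. It measured 1.09, 5.18, 1.94 and 1.82 CPM in MG72, on 3 to 17 counts, and 6.83, 6.21, 5.58 and 6.09 CPM in MR72. At 24h the libraries ran from 2.45 to 6.13 CPM in green and from 2.51 to 6.48 CPM in red. The 72h difference was 2.47-fold (log2 1.30 ± 0.38 SE, adjusted p = 0.0146), and it was lost without library 1 or 3 of MG72 (adjusted p = 0.0574 and 0.0607) and when the red libraries were thinned to the depth of the green ones (0.0606) or the Rn45s covariate was added (0.706). Its exons overlap Gm20696 on the same strand. Eif4e, the main cap-binding protein, was at 14.2 ± 3.95, 15.3 ± 1.45, 14.4 ± 1.03 and 11.1 ± 1.75 CPM in MG24, MR24, MG72 and MR72 (SD, n = 4; adjusted p = 0.233 between colours at 72h). Its inhibitors and its transporter did not pass the test either: 0 of 3 tested genes were called by edgeR or DESeq2 in any comparison, and 0 had an unadjusted p under 0.05. Eif4ebp1 had a log2 difference between colours of 0.02 ± 0.18 SE over both times, and Eif4ebp2, at 0.816 to 4.05 CPM, one of 0.64 ± 0.32 (adjusted p = 0.158).

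**Figure D3:**
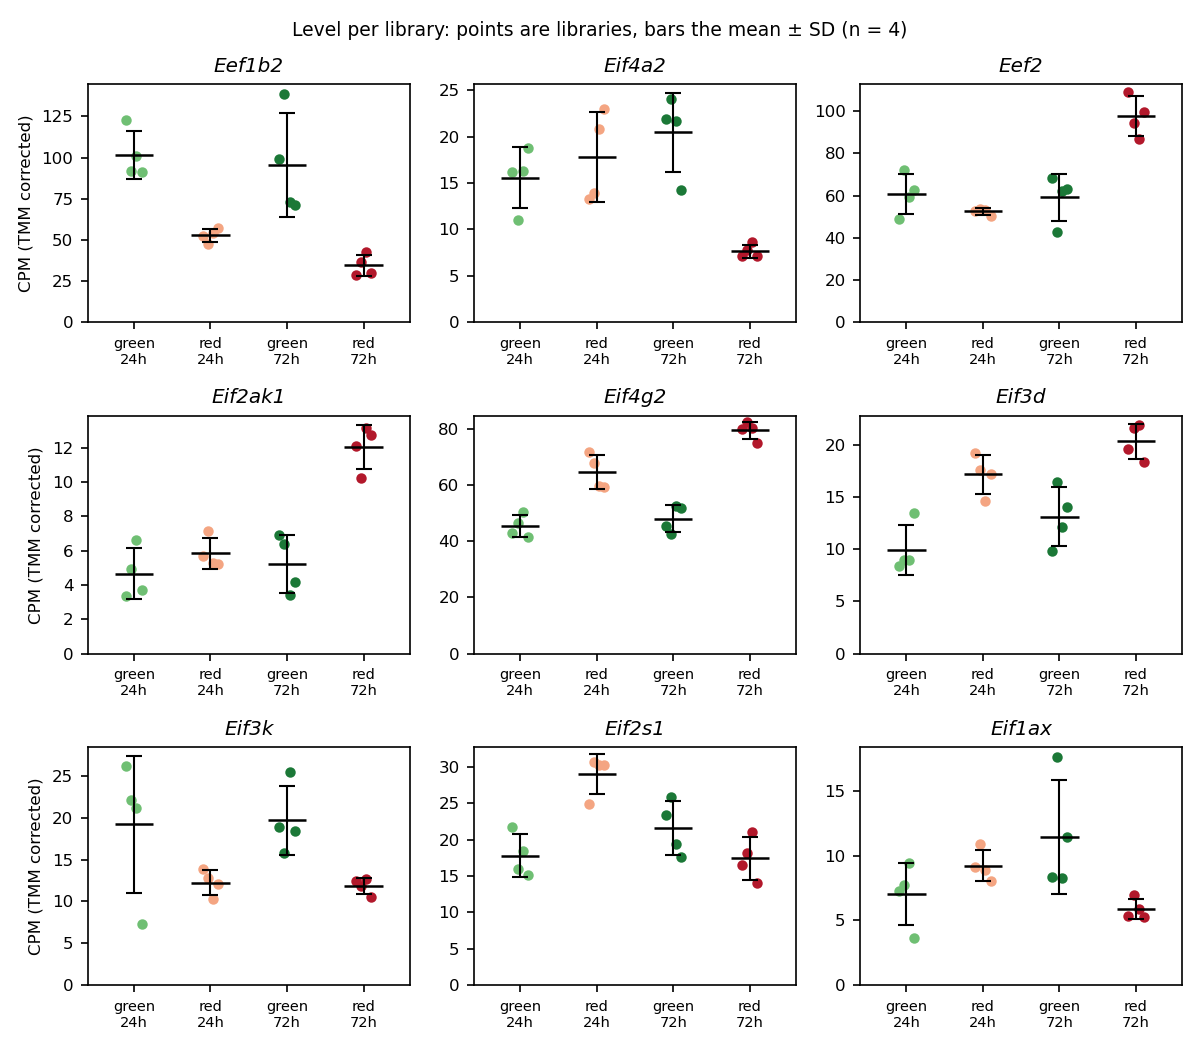
Level of 9 called genes in each library in CPM after TMM correction, on axes from 0, with points for libraries and bars for the group mean ± SD (n = 4). Eef1b2 is lower in both red groups, Eif4g2 and Eif3d are higher in both, and Eif4a2, Eef2 and Eif2ak1 stand apart in red cells at 72h.

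For eIF2, the complex that carries the initiator tRNA, 1 of 5 tested genes was called. Eif2s1 encodes eIF2α, the subunit that stress kinases phosphorylate. It measured 21.7, 15.9, 18.4 and 15.1 CPM in MG24, 24.9, 30.6, 30.2 and 30.3 CPM in MR24, 23.3, 25.9, 19.4 and 17.6 CPM in MG72, and 16.4, 18.1, 21.0 and 14.0 CPM in MR72. Red lay above green at 24h, while at 72h the colours overlapped. It was 1.64-fold higher in red cells at 24h (log2 0.71 ± 0.21 SE, adjusted p = 0.0291) and 1.68-fold lower in red cells at 72h than at 24h (log2 -0.75 ± 0.19, adjusted p = 0.0133).

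The change of its colour difference with time was -1.03 ± 0.29 on the log2 scale (adjusted p = 0.0683 by edgeR and 0.00276 by DESeq2). The 24h call of Eif2s1 held with the Rn45s covariate. It was lost without library 2, 3 or 4 of MG24 or of MR24 (adjusted p 0.0634 to 0.0730) and in a fit of the 24h libraries alone (0.0535). The fall in red cells was lost without library 3 of MR24, or 1 or 4 of MR72 (0.0566 to 0.0673), and with the Rn45s covariate (0.156). It was also lost when no filter on low counts was used. Eif2s3x was at 12.5 ± 6.15, 13.5 ± 0.799, 12.2 ± 1.88 and 16.4 ± 1.04 CPM in MG24, MR24, MG72 and MR72 (SD, n = 4) and was not called.

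Of the 4 eIF2α kinases, Eif2ak1, which encodes the haem-regulated kinase HRI, was called. It measured 3.34, 4.90, 6.63 and 3.67 CPM in MG24, 5.69, 7.16, 5.25 and 5.22 CPM in MR24, 6.92, 6.40, 3.40 and 4.15 CPM in MG72, and 12.1, 10.2, 13.1 and 12.7 CPM in MR72. MR72 stood above the other 12 libraries. Eif2ak1 was 2.35-fold higher in red than in green cells at 72h (log2 1.23 ± 0.27 SE, adjusted p = 0.00134) and 2.06-fold higher in red cells at 72h than at 24h (log2 1.04 ± 0.24, adjusted p = 0.00695). Over both times it was 1.68-fold higher in red cells (adjusted p = 0.00661). These calls held without any 1 library, but the rise in red cells was lost when the red libraries were thinned to the depth of the green ones. The test of the change in colour difference gave 0.96 ± 0.40 on the log2 scale (adjusted p = 0.243). With the Rn45s covariate the adjusted p was 0.455 for the colour difference over both times, 0.242 for that at 72h and 0.0612 for the rise in red cells. Green libraries held 6 to 26 reads of the gene, and its exons overlap Aimp2 and Ankrd61 on the opposite strand.

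The other 3 kinases were not called. Eif2ak2, for the double-stranded RNA sensor PKR, was at 17.1 ± 4.83, 14.2 ± 0.765, 21.7 ± 4.93 and 18.7 ± 1.29 CPM in MG24, MR24, MG72 and MR72 (SD, n = 4). Eif2ak3, for the endoplasmic reticulum kinase PERK, ran from 0.755 to 4.93 CPM, and Eif2ak4, for the amino acid sensor GCN2, from 0 to 4.50 CPM. None of the 5 eIF2B genes, which encode the exchange factor that phosphorylated eIF2 blocks, was called in any comparison by edgeR or DESeq2, and 2 of them (Eif2b1 and Eif2b2) had an unadjusted p under 0.05 in at least 1. Their median log2 difference was 0.69 at 24h, where the values ran from 0.07 to 1.94, and 0.31 at 72h. Eif2b2 measured 2.86 to 3.34 CPM in MG24 and 4.71 to 5.59 CPM in MR24 without overlap (log2 0.68 ± 0.33 SE, adjusted p = 0.228).

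The eIF3 scaffold, which holds the small subunit, the mRNA and the other factors together, was the largest role group, and its called genes moved in both directions. Over both times Eif3d and Eif3c were higher in red cells and Eif3h, Eif3i and Eif3k lower, and 9 of its 14 genes were not called (median log2 -0.09), where 20.2% of all genes were called. At 72h the higher genes were again Eif3c and Eif3d and the lower ones Eif3h, Eif3k and the pair Eif3j1 and Eif3j2, where 16.8% of all genes were called. At 24h Eif3d alone was called, higher in red cells. With the Rn45s share as a covariate none of the calls of the scaffold was kept in any comparison (adjusted p 0.177 to 0.967). The 14 genes together made up 15.7 to 20.2% of the CPM of all 65 genes in green and 15.7 to 18.6% in red libraries.

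Eif3d, whose protein can bind the cap itself, measured 8.36, 8.99, 8.93 and 13.5 CPM in MG24, 19.2, 17.6, 14.7 and 17.2 CPM in MR24, 9.84, 16.4, 12.2 and 14.0 CPM in MG72, and 19.6, 21.6, 21.9 and 18.3 CPM in MR72. Within each time red lay above green. It was 1.63-fold higher in red cells over both times (log2 0.71 ± 0.15 SE, adjusted p = 0.000905), a call that held without any 1 library and was lost with the Rn45s covariate (0.202). The calls within a time, 1.73-fold at 24h (adjusted p = 0.0253) and 1.54-fold at 72h (0.0348), were each lost without any of several libraries: 1, 2 or 3 of MG24 or 1, 2 or 4 of MR24 at 24h (0.0508 to 0.0955), and 1 or 3 of MG72 or 1, 2 or 3 of MR72 at 72h (0.0646 to 0.125). Both of these calls of Eif3d were also lost when the red libraries were thinned to the depth of the green ones. Its exons overlap Gm17638 on the opposite strand. Eif3c, which encodes a core subunit, measured 18.4, 24.1, 18.9 and 20.8 CPM in MG24, 33.5, 26.8, 27.7 and 32.0 CPM in MR24, 22.6, 31.1, 19.2 and 22.0 CPM in MG72, and 38.5, 33.1, 35.5 and 40.4 CPM in MR72. It was 1.51-fold higher in red cells over both times (log2 0.60 ± 0.14 SE, adjusted p = 0.00175), which held without any 1 library and was lost with the covariate (0.305). At 72h it was 1.56-fold higher (adjusted p = 0.0168), which was lost without library 3 of MG72, or 1 or 4 of MR72 (0.0511 to 0.0871).

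Eif3k, for a subunit at the edge of the complex, was lower in red cells by 0.69 on the log2 scale over both times (log2 -0.69 ± 0.18 SE, adjusted p = 0.00478), a value that reversed to 0.093 with totals outside Rn45s as the scale and was not called with the covariate (adjusted p = 0.253). It measured 26.2, 22.1, 21.2 and 7.35 CPM in MG24, 13.8, 12.7, 10.3 and 12.1 CPM in MR24, 18.9, 15.8, 25.5 and 18.4 CPM in MG72, and 12.4, 11.8, 12.7 and 10.5 CPM in MR72. Library 4 of MG24 lay below all other libraries and the rest of the green libraries above all red ones. At 72h it was 1.67-fold lower (adjusted p = 0.0323), which was lost without library 3 of MG72 or any 1 of MR72 (0.0515 to 0.137). This 72h call was also lost when no filter on low counts was used.

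Eif3h, which with Eif3f encodes the subunits of the deubiquitinase-like fold, was at 41.2 ± 14.7, 32.8 ± 4.13, 39.4 ± 7.87 and 24.2 ± 3.65 CPM in MG24, MR24, MG72 and MR72 (SD, n = 4). It was 1.43-fold lower in red cells over both times (adjusted p = 0.0199), lost without library 3 of MG24 or 1 of MG72 (0.0557 and 0.0502), and reversed to a log2 difference of 0.27 with totals outside Rn45s. At 72h it was 1.63-fold lower (adjusted p = 0.0283), lost without library 1 or 2 of MG72, or 1 or 4 of MR72 (0.0549 to 0.106). Both calls of Eif3h were also lost when no filter on low counts was used. Eif3i was at 19.5 ± 3.91, 13.9 ± 1.72, 13.0 ± 2.40 and 9.08 ± 1.60 CPM in the same order. It was 1.41-fold lower in red cells over both times (adjusted p = 0.0205), lost without library 1 of MR24 (0.0517), and reversed to 0.26 on the log2 scale with totals outside Rn45s. The call of Eif3i was also lost when no filter on low counts was used.

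The shared reading of Eif3j1 and Eif3j2, which encode a loosely held subunit, was at 12.4, 17.1, 16.3 and 13.2 CPM in MG72 and at 9.49, 8.02, 8.75 and 8.61 CPM in MR72 without overlap. At 24h it ran from 7.36 to 14.7 CPM in green and from 7.62 to 15.0 CPM in red. The 72h difference was 1.70-fold (lower in red, log2 -0.76 ± 0.24 SE, adjusted p = 0.0269), and it was lost without library 2 or 3 of MG72, or 2, 3 or 4 of MR72 (0.0513 to 0.0779). It was also lost when no filter on low counts was used. On the same strand, exons of Eif3j1 overlap Gm47314 and those of Eif3j2 overlap Gm27325. Of the eIF3 genes edgeR called Eif3f alone with time in red cells, from 10.8, 10.1, 6.88 and 5.80 CPM in MR24 to 16.4, 14.8, 14.3 and 11.9 CPM in MR72. This 1.71-fold rise (adjusted p = 0.0438) was lost without any 1 of 7 of these 8 libraries (0.0530 to 0.198), the exception being library 1 of MR24, and with RLE factors, totals outside Rn45s, the Rn45s covariate or thinned red libraries. Eif3i was lower in red cells at 72h than at 24h by DESeq2 (log2 -0.65, adjusted p = 0.00863) and not past the threshold by edgeR (log2 -0.61 ± 0.21 SE, adjusted p = 0.0614).

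**Figure D4:**
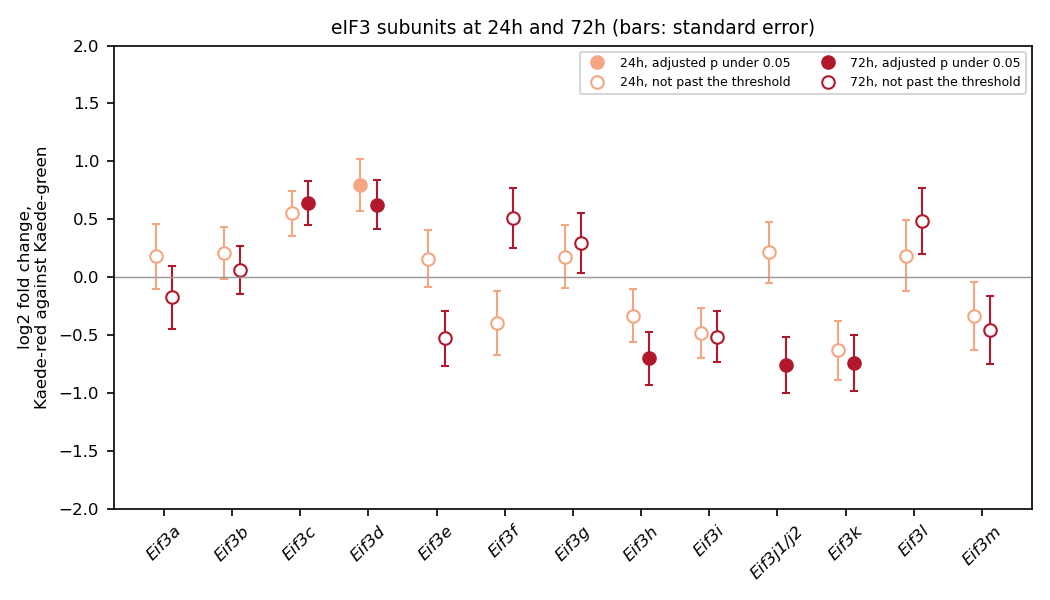
Log2 fold change of Kaede-red against Kaede-green cells for the eIF3 subunit genes at 24h (pale) and 72h (dark) on the TMM scale, with bars for the standard error and filled points for an adjusted p under 0.05. Eif3c and Eif3d lie above 0 at both times, and Eif3h and Eif3k lie below 0 at both times.

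Of the 5 genes around eIF1 and eIF1A, which keep the scanning ribosome open until a start codon is met, Eif1 was called over both times and at 24h, and Eif1ax at 72h. Eif1 measured 47.9, 38.8, 51.0 and 42.4 CPM in MG24 and 32.3, 29.3, 26.1 and 31.1 CPM in MR24 without overlap, and 25.9 to 38.2 CPM in MG72 and 26.1 to 38.0 CPM in MR72 with overlap. It was 1.52-fold lower in red cells at 24h (adjusted p = 0.0470), which reversed to a log2 difference of 0.29 with totals outside Rn45s and was lost without library 1 or 3 of MG24 or any 1 of MR24 (0.0770 to 0.130). Over both times the difference was 1.29-fold (adjusted p = 0.0468). It reversed to 0.38 on the log2 scale with totals outside Rn45s, and it was lost in 12 of 16 fits that each left out a library (adjusted p 0.0584 to 0.101), all but those without library 2 or 4 of MG24, 1 of MG72 or 3 of MR72. With the Rn45s covariate neither call of Eif1 was kept (adjusted p = 0.410 at 24h and 0.807 over both times).

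Eif1ax, the X-linked gene for eIF1A, was at 8.38, 17.7, 8.26 and 11.4 CPM in MG72 and at 5.35, 6.99, 5.89 and 5.27 CPM in MR72 without overlap. It was 1.94-fold lower in red cells at 72h (log2 -0.96 ± 0.26 SE, adjusted p = 0.0101), and the call was lost without library 2 of MG72 (0.0932) and with the Rn45s covariate (0.361). At 24h the difference was 0.36 ± 0.29 on the log2 scale (adjusted p = 0.518), and the change with time, -1.32 ± 0.39, had an adjusted p of 0.0815 by edgeR and 0.0124 by DESeq2. Among the 5 late factors Eif5a alone was called. Its protein, which carries the modified residue hypusine, eases stalled peptide bonds. It was at 60.7, 56.8, 56.9 and 44.9 CPM in MG24, 40.5, 44.9, 44.9 and 41.4 CPM in MR24, 45.9, 57.9, 53.0 and 56.8 CPM in MG72, and 40.8, 39.8, 42.1 and 35.1 CPM in MR72.

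The green and red libraries of Eif5a met at 44.9 CPM at 24h and did not overlap at 72h. It was 1.32-fold lower in red cells over both times (log2 -0.40 ± 0.12 SE, adjusted p = 0.0202), which reversed to 0.37 with totals outside Rn45s and was lost without library 1 of MR24 (0.0528) and with the Rn45s covariate (0.616). The call of Eif5a was also lost when no filter on low counts was used. Eif6, which keeps the large subunit from joining early, was at 17.1 ± 2.82, 17.4 ± 0.408, 17.3 ± 3.40 and 16.2 ± 3.16 CPM in MG24, MR24, MG72 and MR72 (SD, n = 4), with a log2 difference between colours of -0.04 ± 0.15 SE. Eef2kmt, the leading gene of its pair, was at or below 3.05 CPM in every library and was not called.

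Of 64 other tested genes of translation and its control, listed by function, 8 were called over both times (12.5% against 20.2% of all genes), 5 at 24h (7.81% against 7.51%) and 4 at 72h (6.25% against 16.8%). Calls of these other genes come from the main fit alone. Whether they hold with the Rn45s covariate, another scale, thinned red libraries or a library left out was not tested. Of 9 poly(A)-binding proteins and regulators of the cap complex, Pabpc1, the main poly(A)-binding protein, was higher in red cells over both times (1.36-fold, adjusted p = 0.0131) and at 72h (1.54-fold, 0.0142). Paip2, which holds Pabpc1 off the poly(A) tail, was lower in red cells, 1.78-fold over both times (adjusted p = 0.000105) and 2.30-fold at 72h (0.000110). Its means were 17.7, 13.1, 17.2 and 7.37 CPM in MG24, MR24, MG72 and MR72. Pdcd4, an inhibitor of the eIF4A helicases, was 2.14-fold lower over both times (adjusted p = 0.0166).

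Of 10 tested genes for integrated stress response targets and phosphatase subunits, Ppp1r15b, which directs a phosphatase to eIF2α, was called over both times (1.38-fold lower in red, adjusted p = 0.0120) and at 24h (1.61-fold lower, 0.0231), and the other 9 were not. Of 10 genes of mTORC1 and its control, the inhibitor Tsc2 alone was called, 2.18-fold higher in red cells at 72h (adjusted p = 0.0271). Of 5 release and recycling factors and 2 hypusine enzymes 0 were called by edgeR in any comparison, and 3 and 1 of them had an unadjusted p under 0.05 in at least 1. Of 8 mitochondrial factors, the recycling factor Mrrf was higher in red cells at 24h (adjusted p = 0.0215), with 0 or 1 count in each MG24 library and 6 to 26 in MR24.

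Of 20 cytosolic aminoacyl-tRNA synthetases, Farsb, Dars and Sars were higher and Eprs lower in red cells over both times, Dars, Lars and Sars were higher at 24h and Wars at 72h. Dars, which charges the aspartate tRNA, was at 3.06 to 6.54 CPM in MG24, on 8 to 16 counts, and 13.0 to 15.5 CPM in MR24. This was a 3.39-fold difference (adjusted p = 0.000141). At 72h Dars was at 5.59 to 11.6 CPM in MG72 and 7.55 to 12.1 CPM in MR72. Its colour difference changed with time (log2 -1.62 ± 0.39 SE, adjusted p = 0.0467). Sars was 2.08-fold higher at 24h (adjusted p = 0.00828), Lars 2.00-fold higher at 24h (0.0351) and Wars, an interferon-inducible synthetase, 2.52-fold higher at 72h (0.0122). Over both times Farsb was 2.11-fold higher (0.0461) and Eprs 1.47-fold lower (0.0195). Farsb rested on 1 to 6 counts a library in MG24 and 2 to 11 in MG72.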

How the data were processed

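The authors deposited raw counts per gene for each library. Per the labels and the study's methods, RNA was made into stranded total RNA libraries with a pico input kit, reads were trimmed with Trim Galore, checked with FastQC, aligned to mm10 with HISAT2 and counted with featureCounts. Versions, annotation, strand setting and the treatment of multiply mapped reads are not given in the sources used here. A combined table was not used.

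Counts were fitted in R 4.3.3 with edgeR 4.0.16 (filterByExpr defaults, TMM, quasi-likelihood test) over all 16 libraries with 1 mean per group, and p-values were adjusted over the 9642 genes tested (Benjamini-Hochberg, threshold 0.05). Groups came from the labels. CPM used TMM-corrected totals, and the length behind CPM per kb was the exon union of GENCODE vM21 (GRCm38), which is longer than most transcripts. Alternatives were DESeq2 1.42.0, RLE factors, totals outside Rn45s (also a refit without Rn45s), other filters (none, or at least 10 counts in every library), only the groups compared, a replicate block, the Rn45s share as a covariate, red libraries thinned to 691122 counts outside Rn45s, and each library left out. The fits were tested on simulated data. No pair of replicates in a group agreed within sampling noise (chi-square per gene 2.75 or more over 24 pairs).

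Named were all called members, the member of highest level per length in each role group, a set of regulators and core factors whatever their values, and up to 5 rises and 5 falls per colour comparison among the other translation genes. Members and lists were chosen with earlier results of these data known. Counting limits the precision most in green libraries.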

Additional observations from a re-analysis of the deposited data

Results flagged for a closer look

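In groups of 4, a library was marked where its gap to the nearest other, as a share of the whole range, exceeded Dixon's 95% critical value, which chance does in about 1 of 20 groups. Of 128 sets of 4 values of the 33 named genes, 6 held such a library. Library 4 of MG24, which had the fewest counts outside Rn45s (468092), gave 3 of them: Eif3d at 13.5 CPM (others up to 8.99), and Eif3j1 and Eif3j2, which share 1 reading, at 14.7 CPM (others up to 8.42). Eif2s1 in library 1 of MR24 was at 24.9 CPM, below 30.2 CPM in the nearest other. Eif2b2 in library 2 of MG24 was at 2.86 CPM, below 3.26 CPM. Eef2kmt in library 2 of MG72 was at 3.05 CPM, above 0.778 CPM.

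Eif4a2 was marked because its difference between red and green cells changed from 24h to 72h, by -1.62 on the log2 scale (edgeR, adjusted p = 0.0227). All MR72 libraries lay below all MG72 libraries, while at 24h the colours overlapped.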

How the results depend on the processing

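Over both times 50 of the genes (49 higher) were called with totals outside Rn45s as the scale and 0 with the Rn45s covariate. At 24h DESeq2 called 8, totals outside Rn45s 46, at least 10 counts in every library 7, the compared groups alone 2, the Rn45s covariate 1 and thinned red libraries 2. At 72h totals outside Rn45s gave 27 and the covariate 0. In red cells with time DESeq2 called 10, the stricter filter 9, the compared groups alone 11 and the covariate 1. For the change of the colour difference, DESeq2 called 4, totals outside Rn45s 3 and the stricter filter 3. With no filter 11 genes were called over both times, but 7 were higher and 4 lower, and the median gene moved to 0.18. Green cells with time gave 0 in every setting.

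Deviations of same-numbered green and red libraries had correlations of 0.0493 to 0.153 at 24h and -0.0183 to 0.0287 at 72h. Those of different-numbered libraries ran from -0.132 to 0.147 at 24h and from -0.0556 to 0.0595 at 72h. These values cannot decide whether same-numbered libraries share a tumour, because libraries of 1 tumour need not deviate alike. A replicate block gave 4, 13 and 11 called genes for the colour at 24h, at 72h and over both times, 0 and 6 for time in green and in red cells, and 2 for the colour difference changing with time (Eif4a2 and Eef2, the latter at an adjusted p of 0.0476).

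Leaving out each library in turn gave 8 to 14 called genes over both times, 1 to 4 at 24h (1 without library 3 of MG24, or 2 or 4 of MR24), 7 to 14 at 72h (7 without library 3 of MG72), 0 to 0 in green cells with time, 3 to 5 in red cells and 0 to 1 for the colour difference changing with time.

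Signs turned with totals outside Rn45s for the colour difference over both times of Eif5a (0.37), Eif1 (0.38), Eif3h (0.27), Eif4a2 (0.14), Eif3i (0.26) and Eif3k (0.093), and at 24h of Eif1 (0.29), and with the Rn45s covariate for Eif4a2 (0.013). The cause was not tested. Over the 34 calls, 256 of 323 values from settings other than a left-out library kept their direction and call, 59 lost the call and 8 turned. Of 368 values with a library left out, 289 kept the call, 79 lost it and 0 turned.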
